A study of Mus musculus with 20 samples.

Results

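The mammalian carboxylesterase family was described over 5 tissues and 4 diets of mice through 10 of its genes: Ces1c, Ces1d, Ces1e, Ces1f and Ces1g of the first subfamily, Ces2a, Ces2c and Ces2e of the second, and Ces3a and Ces3b of the third. The 10 genes were taken by name, with earlier results of these data known, from the 21154 genes that the array's probes could be matched to. Each was represented by its brightest probe, and 8 further carboxylesterases on the array were left out of the 10. The 4 groups of male C57BL/6J mice were a high fat diet (60% of energy from fat) with an extract of the red alga nori added at 2% by weight (HFD+Ex), the same diet with porphyran, the sulfated polysaccharide of nori, added at 2% by weight (HFD+PP), the high fat diet alone (HFD), and a control diet with 10% of energy from fat (CD). Feeding began at 5 weeks of age and lasted 13 weeks. Liver, ileum, colon, brown fat and mesenteric white fat were taken, and RNA of 1 tissue from the 7 mice of a group was pooled onto 1 one-colour array, which gave 20 arrays. Each group was therefore 1 array per tissue, no difference between diets has a replicate check, and neither a test nor a p-value is given. For each diet, the 5 tissue pools were made from the same animals.

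Carboxylesterases are serine hydrolases that cleave ester, amide and thioester bonds, most of them inside the endoplasmic reticulum. They are known for activating and clearing ester drugs, and several also release fatty acids from stored triacylglycerol in liver, gut and fat. In mice the genes arose by repeated tandem duplication, so that several mouse genes correspond to a human one. In the RefSeq gene table of assembly GRCm38.p6 all 20 listed carboxylesterase genes lay on chromosome 8, with the Ces1 genes next to each other in 1 run and the Ces2 and Ces3 genes in another. Such close relatives can share signal on a probe, and the probe sequences were not used here, so a part of any member's signal may come from a neighbour.

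Levels are log2 signals relative to the 75th percentile of the array, which can be followed for 1 gene over arrays but do not rank genes against each other. A member was measured in a comparison when its spot was called well above background on 1 or both of the arrays compared, and it was counted as higher or lower at 2-fold or more. Where the dimmer array was not well above background, the difference was taken against that array's detection floor and is written "at least". The floor is the lowest level of any probe well above background on that array. A dim reading above the floor was used itself, as for Ces2a in mesenteric fat on CD and Ces2e in brown fat on HFD+Ex. Such readings can lie above the floor, so "at least" is not a strict bound. Between 50.7% and 67.9% of spots were well above background, no spot was saturated, and replicate spots gave a technical standard deviation of at most 0.0929 log2 for a difference, which leaves out all variation between mice. The tissues carried their own markers: Alb, the albumin gene, stood at 10.46 to 10.56 in liver, Adipoq of fat cells at 7.69 to 8.33 in mesenteric fat, Ucp1 of brown fat cells at 10.01 to 10.35 in brown fat, Fabp2 of absorbing gut cells at 8.56 to 9.41 in ileum, and Car1 of colon epithelium at 4.70 to 5.76 in colon. Arrays lay on 4 slides. Liver shared a slide with mesenteric fat alone, ileum with brown fat alone, and colon with no other tissue. Between tissues that share no slide, slide and tissue cannot be told apart. For HFD+PP and HFD+Ex against HFD in mesenteric fat, and for HFD+Ex against HFD and against HFD+PP in brown fat, slide and diet cannot be told apart.

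Across tissues most of the 10 members were highest in liver, and levels came near it in brown fat (Ces1d) and gut (Ces2 members). In 7 of the 10 members, Ces1c, Ces1d, Ces1e, Ces1f, Ces1g, Ces3a and Ces3b, all 4 liver arrays stood above the other 16, against 14.2% of the 18908 genes well above background somewhere. The other members, Ces2a, Ces2c and Ces2e, overlapped between liver and gut with the probes used. Of the 10 members only Ces1d and Ces1f were well above background on all 20 arrays, while Ces3b was on 9. Among the 8 other carboxylesterases on the array, Ces1b, Ces2g and Ces4a were also highest in liver without overlap, and Ces1a with overlap. Ces2b was highest in colon (mean 5.53, against 3.43 in liver), and Ces2f was well above background in colon alone. Ces2h and Ces5a were not well above background on any liver array. In these bulk tissues, fewer cells of a type and less RNA per cell cannot be told apart. With 4 pools of mice shared by the tissues, an exact two-sided sign-flip test of 1 tissue against another cannot go below p = 0.125, so the order of tissues is described by ranges over the 4 diets.

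**Figure D1:**
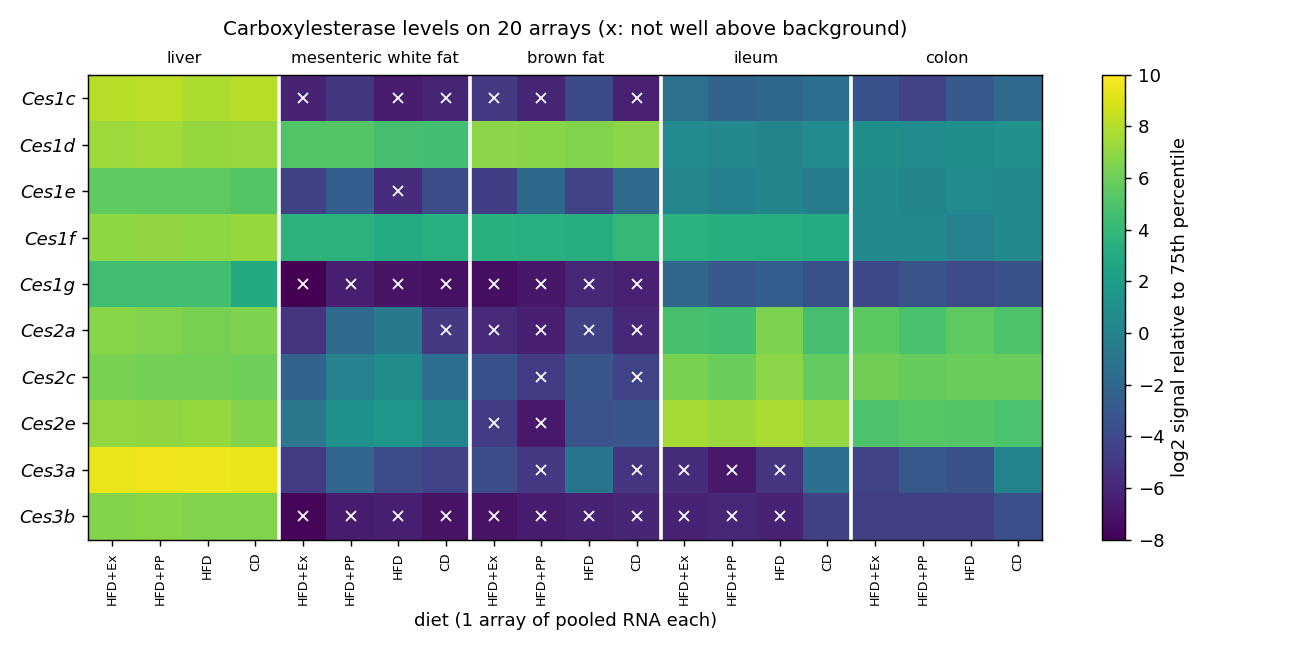
Level of each member (rows) on each array (columns, by tissue and diet), in log2 signal relative to the array's 75th percentile; crosses mark values not well above background. Colours are to be followed along a row: the liver block is the brightest in 7 rows, Ces1d stays bright in brown fat, and the 3 Ces2 rows stay bright in ileum and colon.

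Among the Ces1 genes, Ces1d, the triacylglycerol hydrolase of liver and fat cells, was the member nearest to its liver level in fat. It stood at 7.34, 7.49, 7.17 and 7.23 in liver on HFD+Ex, HFD+PP, HFD and CD, and at 6.86, 6.83, 6.58 and 6.86 in brown fat on the same diets. Mesenteric fat gave 5.12, 5.16, 4.66 and 4.52, colon 0.95, 0.75, 0.94 and 1.1, and ileum 0.65, 0.47, 0.17 and 0.66. No 2 neighbouring tissues in this order overlapped, and the liver mean was 1.44-fold above brown fat, 5.43-fold above mesenteric fat, 82.6-fold above colon and 113-fold above ileum. Ces1f, a relative known as triacylglycerol hydrolase 2, had the next widest reach. Its liver values of 6.97, 6.99, 6.91 and 7.13 lay 11.3-fold above brown fat, 12-fold above mesenteric fat and 13.4-fold above ileum. Brown fat (3.23 to 4.01), mesenteric fat (3.09 to 3.65) and ileum (3.07 to 3.53) overlapped for Ces1f, and colon, at most 0.59, lay below them.

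The other Ces1 members fell away outside the liver more steeply. Ces1e, known as egasyn, which holds beta-glucuronidase in the endoplasmic reticulum, stood at 5.61, 5.51, 5.57 and 5.19 in liver. Its liver mean was 31-fold above colon and 43.6-fold above ileum, which overlapped, and 396-fold above brown fat, which overlapped mesenteric fat, where 3 of 4 arrays were well above background. Ces1c, which encodes the carboxylesterase secreted into mouse plasma, stood at 8.07, 8.19, 7.78 and 8.06 in liver. That was 869-fold above ileum and 2261-fold above colon, while in each fat depot 1 of 4 arrays was well above background. Ces1g, a lipid-hydrolysing liver esterase, had 4.50, 4.50, 4.55 and 3.02 in liver, 122-fold above ileum and 227-fold above colon. It was not well above background on any of the 8 fat arrays, and the liver mean was at least 408-fold above brown fat and at least 755-fold above mesenteric fat.

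The 3 Ces2 members, esterases of liver and intestine that take drug esters and acylglycerols as substrates, were the members with gut levels closest to liver levels. Ces2c stood at 6.29, 6.15, 6.17 and 6.01 in liver, at 6.28, 5.94, 6.84 and 5.69 in ileum and at 6.11, 5.77, 5.95 and 5.86 in colon on HFD+Ex, HFD+PP, HFD and CD. With this probe the 3 tissues overlapped, and the liver mean was 0.976-fold that of ileum and 1.17-fold that of colon. The other Ces2c probes both put liver below ileum and colon without overlap. The brighter of them gave 3.6 to 4.72 in liver, 5.09 to 6.33 in ileum and 5.93 to 6.17 in colon. Ces2e stood at 7.06, 7.03, 7.13 and 6.66 in liver, against 7.56, 7.30, 7.73 and 7.08 in ileum, again with overlap. Its liver mean was 0.733-fold that of ileum and 3.71-fold that of colon, which lay below both. The second Ces2e probe stood at −0.78 to −0.43 in liver and at −0.28 to 0.4 in ileum, without overlap. Ces2a had 6.79, 6.59, 6.30 and 6.52 in liver and 5.47, 4.85, 5.56 and 5.02 in colon, with no overlap between them. Its ileum values of 4.76, 4.52, 6.46 and 4.66 overlapped both, through the HFD array alone. All 3 were lower in both fat depots. Ces2c and Ces2e were lower in brown fat than in mesenteric fat without overlap, and the depots overlapped for Ces2a. In brown fat Ces2a was on no array well above background, and Ces2c and Ces2e were on 2 each.

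The 250 bases before the start of these 3 genes are shown because the genes share their tissues and all had their highest level on HFD in ileum and in mesenteric fat. They are RefSeq sequences of assembly GRCm38.p6, plus strand, 5′ to 3′. Capitals mark the longest runs of bases that all 3 hold, each 7 bases long.
Ces2a, chr8:104733753-104734002: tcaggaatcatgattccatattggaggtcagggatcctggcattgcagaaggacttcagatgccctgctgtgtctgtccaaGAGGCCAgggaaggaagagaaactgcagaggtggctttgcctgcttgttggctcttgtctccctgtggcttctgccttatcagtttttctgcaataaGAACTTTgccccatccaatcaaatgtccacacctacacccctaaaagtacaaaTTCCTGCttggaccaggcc
Ces2c, chr8:104846818-104847067: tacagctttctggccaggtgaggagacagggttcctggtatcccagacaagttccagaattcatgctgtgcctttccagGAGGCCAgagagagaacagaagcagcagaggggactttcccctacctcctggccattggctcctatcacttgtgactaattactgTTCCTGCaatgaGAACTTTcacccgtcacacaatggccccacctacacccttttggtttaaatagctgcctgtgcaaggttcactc
Ces2e, chr8:104926010-104926259: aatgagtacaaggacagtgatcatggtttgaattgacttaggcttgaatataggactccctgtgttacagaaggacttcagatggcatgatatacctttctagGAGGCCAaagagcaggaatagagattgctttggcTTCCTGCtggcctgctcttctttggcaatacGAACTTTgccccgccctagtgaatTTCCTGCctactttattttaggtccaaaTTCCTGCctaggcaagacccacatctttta
GAACTTT begins 72, 74 and 82 bases before the start in Ces2a, Ces2c and Ces2e and is held, on either strand, by 3.28% of the 32851 promoter windows in the table cut to the same length. GAGGCCA is held by 6.56% and TTCCTGC, which Ces2e has 3 times on the strand shown, by 7.28%, both counted on either strand. With the next letter, GAACTTTG (searched on both strands, and overlapping GAACTTT) is in Ces2a and Ces2e and in 0.898% of windows. Pairs of the genes share longer runs: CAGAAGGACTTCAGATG is in Ces2a and Ces2e and in no other window of the table, and CACCTACACCC is in Ces2a and Ces2c and in 8 windows in all. The TATA box letters TATAAA, on either strand, are in none of the 3 windows and in 12.4% of all windows. These are matches of letters in duplicated genes and were not tied to any measured binding. Entries were found for 7 of the 10 members.

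Ces3a and Ces3b, liver esterases that neighbour each other on the chromosome, had the largest excess of liver over the next tissue. Ces3a stood at 9.47, 9.62, 9.53 and 9.48 in liver on HFD+Ex, HFD+PP, HFD and CD, and Ces3b at 6.64, 6.80, 6.62 and 6.61. The Ces3a liver mean was 4846-fold above that of colon, the next tissue, and the Ces3b mean 2071-fold. Outside the liver the ranges of Ces3a overlapped between all neighbouring tissues, because 1 diet pool often stood far from the others, and Ces3b was not well above background on any fat array. Ces3b was at least 2343-fold higher in liver than in brown fat and at least 4342-fold higher than in mesenteric fat.

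Between diets, 36 of the differences measured over 20 comparisons reached 2-fold, and they were spread unevenly. The high fat diet against the control diet gave 7 higher and 6 lower among 44 measured values. Adding porphyran gave 3 higher and 6 lower of 43, adding the extract 0 higher and 6 lower of 42, and the extract against porphyran 1 higher and 7 lower of 41. The share of all genes past 2-fold differed by tissue. It ran from 2.13% (colon) to 17.7% (mesenteric fat) on HFD against CD, and from 2.11% (liver) to 8.42% (mesenteric fat) with porphyran. With the extract it ran from 1.54% (colon) to 7.47% (mesenteric fat), and between the supplements from 1.76% (liver) to 3.32% (ileum). Ces3a had 8 of the differences, Ces2a 7, Ces1e and Ces2c 6 each, Ces2e 5, Ces1c 2, and Ces1g and Ces3b 1 each. Ces1d and Ces1f had none. The comparisons within a tissue share arrays, HFD above all, so they do not support each other.

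In liver 9 of the 10 members stayed under 2-fold on every comparison, and Ces1g was the exception. On HFD, Ces1g stood at 4.55 against 3.02 on CD and rose 2.89-fold, the 1 member of 10 past 2-fold, where 4.82% of 15378 genes were. It stayed at 4.50 on both supplemented diets, a difference of −0.05 from HFD in each case, so the CD pool was the low one of the 4. The other members differed by −0.28 (Ces1c) to 0.47 (Ces2e) between HFD and CD, and the median over members was 0.03, against −0.04 over all genes. None of the 10 passed 2-fold with porphyran against HFD (2.11% of genes), with the extract against HFD (2.87%) or between the supplements (1.76%), where Ces1g differed by −0.00. None of the 10 hepatocyte markers passed 2-fold between HFD and CD either (median −0.05), while 6 of 7 adipocyte, 5 of 6 mesothelium, 4 of 8 smooth muscle and 4 of 11 macrophage markers were higher on HFD, with 1 of the macrophage markers lower. Their part in the Ces1g value was not tested.

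The 3 Ces2c probes disagreed in liver. The brightest, used here, gave 0.16 between HFD and CD, and the others gave 0.98 and 1.12. With porphyran against HFD they gave −0.02 against −0.72 and −0.81, and with the extract against HFD 0.13 against −0.64 and −0.78. In ileum the same probes stood close together, at 1.14, 1.21 and 1.25 between HFD and CD. A Ces2c difference in liver therefore depended on the probe.

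**Figure D2:**
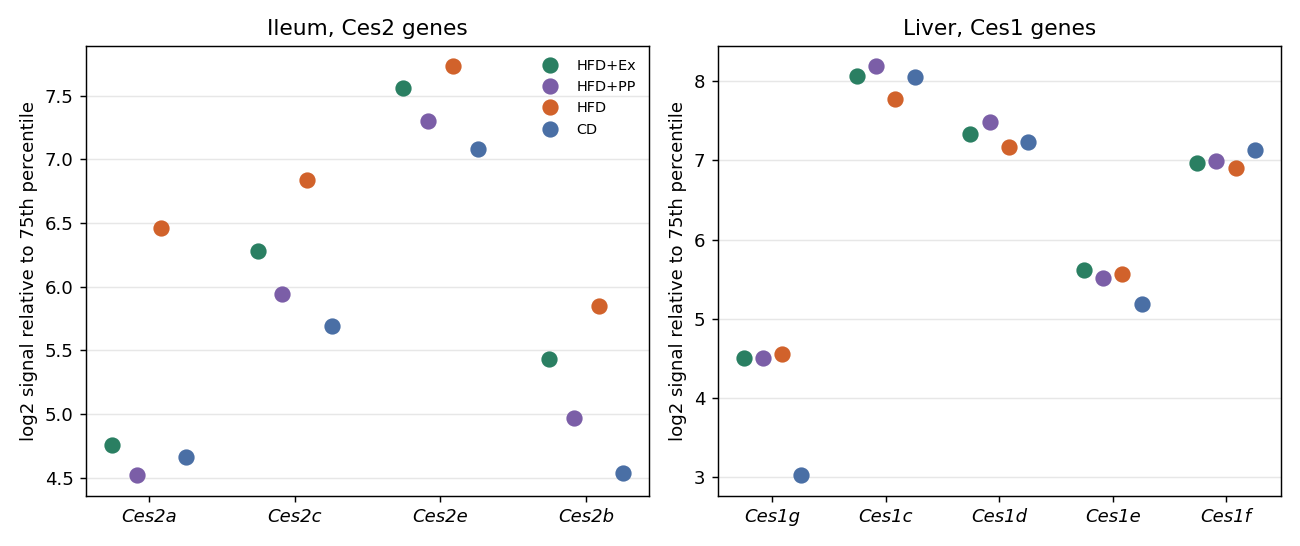
Levels on the 4 diets, 1 array each, in log2 signal relative to the array's 75th percentile: Ces2 genes in ileum (left) and Ces1 genes in liver (right). In ileum the HFD array is the highest of the 4 for Ces2a, Ces2c, Ces2e and Ces2b, and in liver the CD array of Ces1g, at 3.02, lies apart from 4.50 to 4.55 on the other diets.

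In ileum the Ces2 genes were highest on HFD. Ces2a rose 3.48-fold on HFD, at 6.46 against 4.66 on CD, and Ces2c 2.21-fold, at 6.84 against 5.69. Ces2e differed by 0.64 in the same direction, under 2-fold, and its second probe by 0.68. Ces3a, at −5.21 and not well above background on HFD against −1.44 on CD, fell at least 13.6-fold. These were 3 of 10 measured members, where 3.82% of 16510 genes passed 2-fold, and the median over members was 0.40 against −0.00 over all genes.

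With either supplement Ces2a in ileum stood near its CD level again. At 4.52 on HFD+PP against 6.46 on HFD it fell 3.83-fold, the 1 of 8 measured members past 2-fold, against 2.85% of genes. At 4.76 on HFD+Ex it fell 3.24-fold, again the 1 of 8, against 1.8% of genes. Ces2c went the same way by −0.89 with porphyran and −0.55 with the extract, both under 2-fold, and Ces2e by −0.42 and −0.17. Between the extract and porphyran none of 8 members passed 2-fold (3.32% of genes). Over other ways of processing the arrays, the Ces2a differences ran from 1.66 to 1.83 for HFD against CD. They ran from −1.99 to −1.86 for porphyran and from −1.69 to −1.59 for the extract. The Ces2c difference for HFD against CD ran from 1.01 to 1.2. Ces2a has 1 probe and was well above background on all ileum arrays. The filters on dim probes and the mean of all probes therefore could not change its values.

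Genes of the gut lining moved beside them. Of 10 small intestinal epithelium markers, 4 were higher and 0 lower on HFD against CD (median 0.67), and with porphyran 0 were higher and 2 lower (median −0.46), with the extract none (median −0.26). Their summed level was 11.17 on HFD+Ex, 11.15 on HFD+PP, 11.42 on HFD and 10.99 on CD, and Vil1, the villin gene, stood at 7.81, 7.72, 8.11 and 7.62. Within the list Lct, the lactase gene, was 6.57-fold and Apoa4 6.46-fold higher on HFD than on CD. Adipocyte markers ran the other way, with 5 of 9 lower on HFD against CD and 6 of 9 higher with porphyran against HFD. The part of these cells in the Ces2 values was not tested.

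Several mouse carboxylesterase genes, Ces2a among them, are known to be induced through the nuclear receptors CAR and PXR, which sense drugs and bile acids. Of 14 measured genes of a CAR and PXR list, the receptors and enzymes they induce, 6 were higher and 0 lower in ileum on HFD against CD (median 0.71). Cyp2c55 was 9.11-fold higher, Cyp2b10 4.30-fold and Cyp3a25 3.58-fold, all drug-oxidising cytochromes. With porphyran against HFD 0 were higher and 6 lower (median −0.73), with Cyp2c55 26.6-fold lower, Cyp3a25 4.06-fold and Cyp3a11 3.71-fold. With the extract against HFD 2 were lower, Cyp2c55 by 3.97-fold and Cyp3a11 by 2.06-fold (median −0.26), and against porphyran 5 were higher (median 0.48). In liver on HFD against CD 3 of 14 were higher, Cyp2b10 by 81.4-fold, Abcc3 by 3.12-fold and Abcb1a by 2.74-fold, beside a Ces2a difference of −0.22. Of other lipases and esterases, 3 of 15 were higher and 1 lower in ileum on HFD (median 0.36): Aadac, an endoplasmic reticulum esterase, 4.10-fold higher, Ddhd2 2.42-fold higher, and Lpl, lipoprotein lipase, 3.43-fold lower. The lipoprotein and triglyceride synthesis list gave 0 of 15 either way in ileum (median 0.61), and in liver 3 of 15 higher, Mogat1 by 7.48-fold, Gpat3 by 3.70-fold and Mogat2 by 2.20-fold. Of PPAR alpha targets 2 of 11 were higher in ileum and 1 of 12 in liver. Over all genes, 3.82% in ileum and 4.82% in liver passed 2-fold on HFD against CD. In ileum the share was 2.85% with porphyran and 1.8% with the extract against HFD, and 3.32% between the supplements. The part of CAR, PXR or any of these lists in the Ces2 values was not tested.

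The 8 other carboxylesterases on the array gave a further Ces2 gene with the ileum pattern. Ces2b stood at 5.43, 4.97, 5.85 and 4.54 in ileum on HFD+Ex, HFD+PP, HFD and CD, 2.48-fold higher on HFD than on CD. It was 1 of 3 measured there, where 3.82% of all genes passed 2-fold. On HFD+Ex, Ces1b was 3.17-fold and Ces2h at least 11.7-fold higher than on HFD in ileum, 2 of 4 measured. In liver none of the 5 measured passed 2-fold on any comparison.

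In mesenteric fat the 3 Ces2 genes, Ces1e and Ces3a passed 2-fold in some comparison. Markers of gut lining, pancreas, liver, lymphocytes and macrophages moved there too. Ces2a was at −5.26 on HFD+Ex, −1.81 on HFD+PP, −0.74 on HFD and −4.97 on CD, the last not well above background. Ces2c had −2.26, −0.05, 0.80 and −1.45, and Ces2e −0.84, 1.24, 1.60 and 0.11. In each gene HFD and HFD+PP were the 2 high pools, and HFD+Ex and CD the low ones. On HFD against CD Ces2a rose at least 18.8-fold, Ces2c 4.78-fold and Ces2e 2.81-fold, and Ces1e fell at least 2.72-fold, 4 of 7 measured where 17.7% of genes passed 2-fold. The mean of all probes brought Ces2e to 0.69 log2, and normexp brought Ces1e to −0.55.

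With the extract against HFD, Ces2a fell 23.0-fold, Ces2c 8.35-fold and Ces2e 5.46-fold, 3 of 7 (7.47% of genes). With porphyran Ces2a fell 2.10-fold, which 3 of 7 other settings brought under 2-fold, while Ces1e rose at least 6.46-fold and Ces3a 3.5-fold, which normexp brought to 0.89 log2, 3 of 8 in all (8.42% of genes). The extract against porphyran left 5 of 8 lower (2.99% of genes): Ces2a 11-fold, Ces3a 6.49-fold, Ces2c 4.63-fold, Ces2e 4.24-fold and Ces1e 3.66-fold, the last brought to −0.87 log2 by normexp. Ces1d and Ces1f differed by at most 0.56 in any mesenteric fat comparison.

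All 10 small intestinal epithelium markers were higher in mesenteric fat on HFD against CD (median 2.97) and all 10 lower with the extract against HFD (median −3.42). Porphyran against HFD gave 4 of 10 lower, and the extract against porphyran 9 of 10 lower (median −2.81). Their summed level was 4.36 on HFD+Ex, 5.71 on HFD+PP, 6.59 on HFD and 4.03 on CD, and Vil1 stood at −2.17, 0.88, 1.14 and −1.71. All 14 exocrine pancreas markers were lower on HFD than on CD (median −5.92) and all 14 higher with porphyran (6.67) and with the extract (4.88) than on HFD. Of 10 hepatocyte markers 5 were higher with porphyran against HFD (median 0.78), beside the higher Ces1e and Ces3a, and 3 were lower with the extract against porphyran. Their summed level was 6.52 on HFD+Ex, 6.47 on HFD+PP, 5.29 on HFD and 7.10 on CD. All 10 B cell and T cell markers were lower on HFD than on CD (median −3.42). All 10 were higher with porphyran (2.38) and with the extract (2.30) than on HFD. Of 11 macrophage markers 8 were higher and 0 lower on HFD against CD (median 2.21). The part of these cells in the values was not tested.

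**Figure D3:**
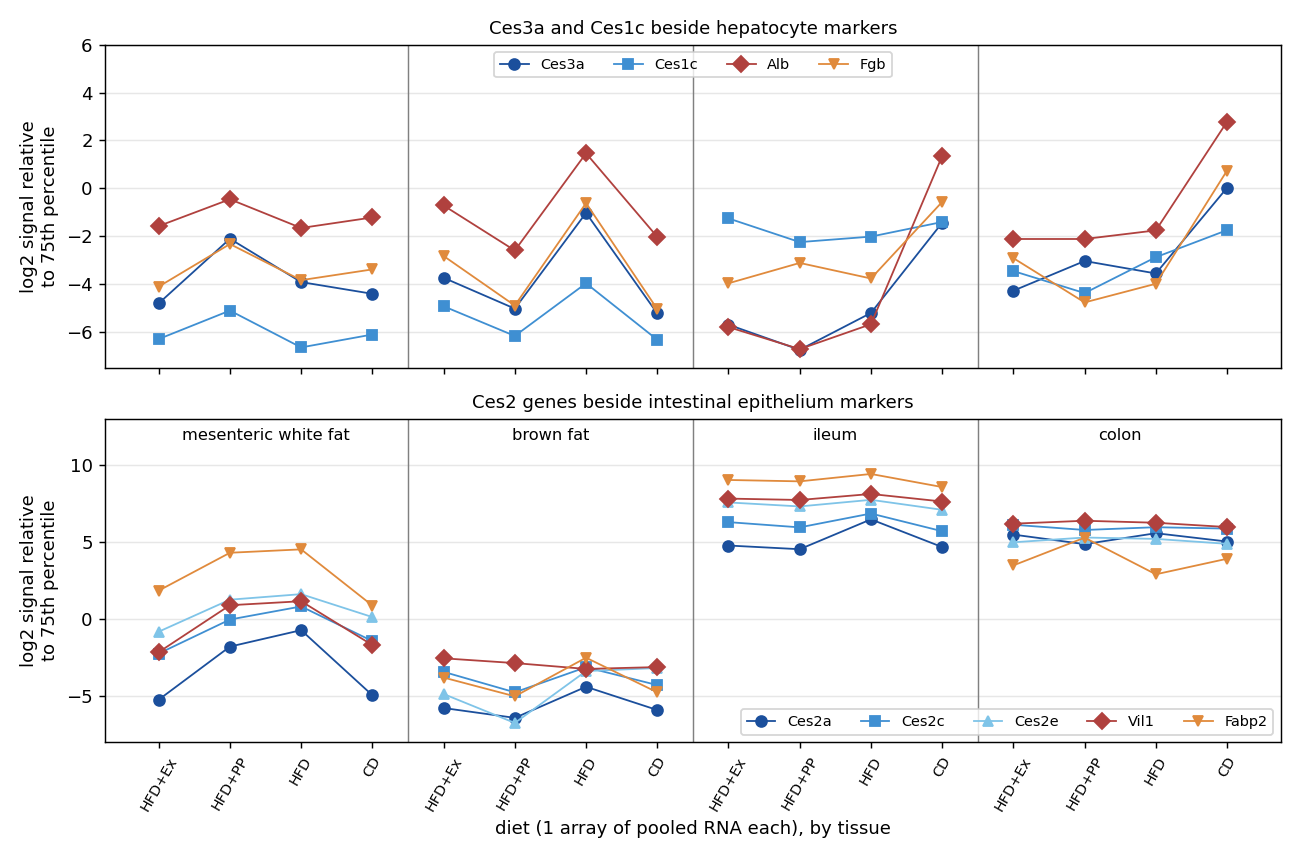
Members beside markers outside the liver, on the 4 diets of each tissue, in log2 signal relative to the array's 75th percentile (lines join arrays of 1 tissue and are no time course, and values not well above background are drawn too). Ces3a, Alb and Fgb share their highest array in brown fat (HFD), ileum (CD) and colon (CD), while over the other colon arrays Fgb and Ces3a differ in order (upper panel), and the 3 Ces2 genes run beside Vil1 and Fabp2 in mesenteric fat (lower panel).

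In brown fat Ces1d and Ces1f again stayed under 2-fold on all comparisons, and low members moved. Ces3a was at −3.74 on HFD+Ex, −5.03 on HFD+PP, −1.03 on HFD and −5.23 on CD, with HFD+PP and CD not well above background. The HFD pool stood apart: Ces3a rose at least 7.92-fold on HFD against CD, fell at least 12-fold with porphyran and 6.52-fold with the extract. Ces1e was split the other way, at −4.65, −1.93, −4.28 and −1.79, with HFD+PP and CD the high pools. It fell 5.61-fold on HFD against CD, rose 5.09-fold with porphyran and was 6.58-fold lower on the extract than on porphyran, values that normexp background correction brought to −0.94, 0.78 and −0.76 log2.

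The counts in brown fat were 2 of 7 on HFD against CD (8.49% of genes), 4 of 7 with porphyran (3.58%), 2 of 7 with the extract (4.08%) and 2 of 5 between the supplements (2.64%). Besides Ces3a and Ces1e they were Ces2c and Ces2e near the detection floor, lower by at least 2.76-fold and at least 2.32-fold with porphyran. Ces2e was also at least 2.81-fold lower with the extract, and Ces2c at least 2.24-fold higher on the extract than on porphyran. All 4 of these bounds fell under 2-fold with normexp and with the mean of all probes. Of 10 hepatocyte markers 5 were higher and 1 lower on HFD against CD (median 1.71), and 5 were lower with each supplement against HFD, while 10 of 11 macrophage markers were higher on HFD against CD. Alb stood at −0.72, −2.60, 1.46 and −2.03, and Fgb, a fibrinogen gene, at −2.83, −4.90, −0.62 and −5.05. The summed hepatocyte level was 5.07, 5.09, 5.33 and 5.13, and 10, 8, 10 and 7 of the markers were well above background. The part of these cells in the Ces3a values was not tested.

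In colon the CD pool carried the highest Ces3a, Ces3b and Ces1c. Ces3a stood at −4.28 on HFD+Ex, −3.04 on HFD+PP, −3.56 on HFD and 0.02 on CD, and fell 12-fold on HFD. Ces1c, at −2.88 on HFD against −1.75 on CD, fell 2.18-fold, and Ces3b, at −4.61 against −3.59, fell 2.02-fold. These were 3 of 10 members, where 2.13% of genes passed 2-fold, and normexp brought Ces1c to −0.75 and Ces3b to −0.23. With porphyran Ces1c fell 2.84-fold, 1 of 10 (2.88% of genes), which normexp brought to −0.68. With the extract none of 10 passed 2-fold (1.54%), and against porphyran Ces3a was 2.35-fold lower, 1 of 10 (3.16%), which normexp brought to −0.43.

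The 3 Ces2 members, well above background on all 4 colon arrays, stayed under 2-fold there on every comparison. With the probes used, their differences ran from −0.71 to 0.61, both of them Ces2a. The 2 Ces2e probes disagreed in colon. With porphyran against HFD the one used gave 0.09 and the other 0.89, and for the extract against porphyran −0.31 and −0.94. Of 10 hepatocyte markers 6 were lower and 0 higher in colon on HFD against CD (median −1.74). Alb stood at −2.12, −2.12, −1.76 and 2.78 and Fgb at −2.92, −4.77, −3.99 and 0.74. The same markers in ileum gave 4 of 10 lower on HFD against CD, where Alb stood at −5.80, −6.72 and −5.68 on HFD+Ex, HFD+PP and HFD, none well above background, and at 1.35 on CD. Not every marker of the list followed: Serpina1c stood at 4.25 on HFD against 3.80 on CD in ileum, and Ttr at 3.16 on HFD against 3.14 on CD in colon. The summed hepatocyte level was 4.89, 4.84, 4.80 and 6.09 in colon and 5.02, 4.76, 4.99 and 5.25 in ileum. Their part in the Ces3a values of both tissues was not tested.

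**Figure D4:**
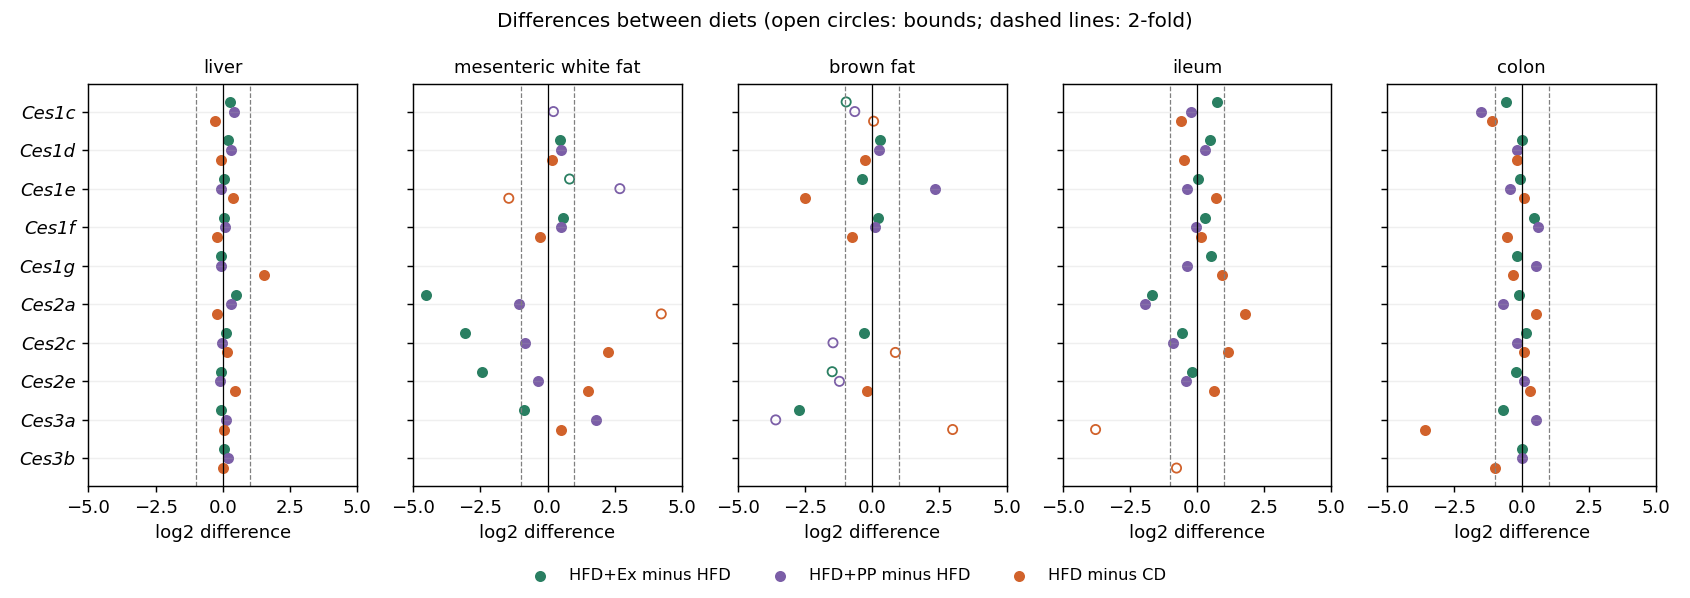
Log2 difference of each member in each tissue for HFD+Ex minus HFD, HFD+PP minus HFD and HFD minus CD. Open circles are bounds against the detection floor, or against a dim reading above it. Dashed lines mark 2-fold, and members not measured have no point. Liver holds 1 point past the lines, Ces1g at 1.53, and the widest points are those of Ces2a in mesenteric fat (−4.52 and 4.23).

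The range over the 4 diets sums up the members well above background on all 4 arrays of a tissue. In liver the 10 members had a median range of 0.37, from 0.15 for Ces3a to 1.53 for Ces1g, against 0.27 over all genes. In ileum 8 members had a median of 0.87 against 0.33, and in colon 10 had 0.65 against 0.27. The 5 in mesenteric fat had 2.45 against 0.48, and the 3 in brown fat 0.77 against 0.38.

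Genes that varied most like the members were sought over the 20 arrays, as a description that mostly follows the tissues. Ces2c was closest to Hnf4a, a transcription factor of liver and gut (Pearson r = 0.997), and Ces2a to Ugt2b34 (0.995) and Nr1i2, the PXR gene (0.992). Ces1d was closest to Zbtb20 (0.996) and Cdo1 (0.995), Ces1c to Proc (0.993), Ces3a to Akr1c6 (0.994), Ces3b to Hrg (0.993), Ces1g to Gjb2 (0.988), Ces2e to Abcg5 (0.983), Ces1f to R74862 (0.982) and Ces1e to Psg23 (0.975). With each tissue's mean taken off, over the arrays of tissues where the member was well above background throughout, Ces2c was closest to Cideb (0.982) and Apob (0.979) over 16 arrays, and Ces2e to Sult1b1 (0.981) and Cideb (0.968) over 16. Tissues were not scaled to the same range, so mesenteric fat weighed most in these 2 members. Over the diets Ces2c ranged by 3.06 there, against 1.14 in ileum, 0.34 in colon and 0.29 in liver. Ces2e ranged by 2.45 there, against 0.64 in ileum, 0.47 in liver and 0.42 in colon. Ces2a was closest to Cd82 (0.956) over 12 arrays, Ces1g to Dcxr (0.962) over 12, Ces3a to Bhmt (0.981) over 12 and Ces3b to Itih3 (0.990) over 8. Colon, where the CD array stood highest, weighed most in Ces3a and Ces3b. Ces3a ranged by 4.3 there, against 2.7 in mesenteric fat and 0.15 in liver, and Ces3b by 1.02 against 0.2 in liver. The others, at 0.814 to 0.919, were Trpc4 for Ces1c, Calcoco2 for Ces1e, Aldh6a1 for Ces1d and BC003965 for Ces1f. Within the family, levels over the 20 arrays ran from r = −0.523 between Ces1d and Ces2c to 0.989 between Ces2a and Ces2c. All of these arrays share pools of mice and cell makeup of the tissue.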

How the data were processed

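The 10 members, the gene lists and the alternatives were chosen with earlier results of these data known. Per the file headers, the deposited scanner files were made with Agilent Feature Extraction 11.5.1.1 and hold background-subtracted, linear intensity values with no scaling between arrays. The authors' value table equals that intensity times 1 factor per array (log2 factors 0.9157 to 1.6501), uncentred, with column medians of 53.504 to 103.567. Intensity was analysed as log2 minus each array's 75th percentile over 55681 probes, after control spots and flagged spots (117 to 206 per array) were left out. Of these probes 28026 had a symbol in the RefSeq table (GRCm38.p6). The file headers name an older build, so no gene coordinates are printed from that table apart from those of the promoter windows.

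With 1 array per group, members were counted at a log2 difference of 1 (2-fold). Detection floors ran from −5.85 to −4.02. All 10 members are named, with the 3 list genes of largest difference past 2-fold per list and comparison, markers of the tissues, and the genes of highest correlation among genes well above background on at least 4 arrays. Alternatives were normexp (limma 3.58.1 in R 4.3.3, offset 50, on median signals), quantile normalization, a percentile over bright probes, the authors' table, other filters on dim probes, and the mean of all probes. Python 3.11.15 scripts were tested on simulated data.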

Additional observations from a re-analysis of the deposited data

Results flagged for a closer look

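Ces3a differed between diets in opposite directions in different tissues, always outside the liver and at levels far under its liver level. On HFD against CD its log2 difference was at least 2.99 in brown fat, at most −3.77 in ileum and −3.59 in colon, where the first and the second are bounds against the detection floor. With porphyran against HFD it was 1.81 in mesenteric fat and at most −3.59, again a bound, in brown fat. Ces2c was at least 1.17 higher on the extract than on porphyran in brown fat, a bound, and −2.21 in mesenteric fat. With 1 array per group these differences between tissues were not tested.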

How the results depend on the processing

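Of 36 called differences, 20 passed 2-fold under every one of the 7 settings that gave a value, and none changed sign. Not every setting could change a call. For the 8 members with 1 probe, the mean of all probes returned the same value. The other filters on dim probes left each difference measured on both arrays as it was. Normexp brought 15 under 2-fold, the mean of all probes 5, quantile normalization 2, and the percentile over bright probes 1, as did the values the authors deposited. Counts over the 5 tissues moved by more than 1.5 times as follows. With normexp, the 6 lower on HFD became 2, with porphyran the 3 higher became 1 and the 6 lower became 2, and between the supplements the 1 higher became 0 and the 7 lower became 4. Keeping only genes well above background on both arrays, the 6 lower with porphyran became 3. With no filter on dim probes, the 0 higher with the extract became 1. The 1 higher between the supplements became 5 with no filter, 2 with the bright-probe percentile and with the authors' table, and 0 with quantile normalization, with both arrays above background and with the mean of probes. Leaving out mesenteric fat, an alternative chosen after seeing the data, removes comparisons by construction: 7 higher on HFD became 4, 3 higher with porphyran 1, 6 lower with the extract 3, and 7 lower between the supplements 2. Except where the construction shows it, the cause was not tested. The count of 7 members with liver above all other arrays held under the 5 settings it was recomputed for. The median of all genes shifted by −0.135 to 0.158 with the bright-probe percentile, by −0.114 to 0.251 with the authors' table and by up to 0.109 with quantile normalization, relative to which differences of those settings are to be read. Between diets no replicate block could be fitted. No paired analysis was possible because a diet has 1 array per tissue. Between tissues, which share the 4 pools, the exact sign-flip test cannot go below 0.125 and was not run. Signal over background limits Ces1c, Ces1g, Ces2a and Ces3b in fat, and Ces3a and Ces3b in ileum.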
